A study of Mus musculus with 12 samples.

Results

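The genes described here are 9 members of the complement system that were measured in mouse skin: the chains of C1q (C1qa, C1qb and C1qc), the components C2, C3 and C4b, the protease Cfb (factor B), and the anaphylatoxin receptors C3ar1 and C5ar1. They were taken by name, whatever their values, and each symbol matched 1 Ensembl ID among the 52636 genes of the count table. All 9 passed the filter on low counts, which 17993 genes passed. The gene list was drawn up with earlier results from these libraries known.

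Complement is a cascade of plasma and tissue proteins that tags targets and calls in leukocytes. C1q recognises bound antibody and altered surfaces and starts the classical pathway, in which C4 and C2 are cleaved and joined into an enzyme that splits C3. Factor B forms the corresponding enzyme of the alternative pathway, which amplifies the deposit of C3 fragments. The small fragments C3a and C5a act on C3aR and C5aR1, G protein-coupled receptors carried by myeloid cells. C1q is made largely by macrophages and dendritic cells in tissues, whereas C3, C4 and factor B are made by liver and by many tissue cells, including adipocytes, keratinocytes and fibroblasts.

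The data came from RNA sequencing of back skin of mice about 8 weeks old, taken here as female BALB/c, in a model of rosacea. LL37 is a human cathelicidin peptide, and rapamycin (RAPA) inhibits the kinase complex mTORC1. The control group received vehicle injections, the control + RAPA group vehicle and rapamycin, the LL37 group intradermal LL37, and the LL37 + RAPA group both agents. The study's methods give 40 µl of 320 µM LL37 injected 2 times a day for 2 days. For BALB/c mice they give rapamycin injected intraperitoneally at 4 mg/kg/day. An ointment of rapamycin was also used in the study, for another strain by its methods and for BALB/c mice by a figure legend. Which route the sequenced mice had is not stated. Each group held 3 samples that the study calls independent. The comparisons ask what the peptide changed in skin, and what differed when mTORC1 was inhibited at the same time.

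Depth was between 15734559 and 23271784 counts per library, so that 3 counts were worth 0.123 to 0.184 CPM (read counts scaled to a common library size). The summed level of 8 keratinocyte markers lay between 28500 and 43900 CPM in the 12 libraries, and that of 8 fibroblast markers between 2540 and 6530 CPM, so that both main cell types of skin were represented in every library. Skeletal muscle markers took 44800 to 82400 CPM without LL37, 163 to 1120 CPM with LL37 and 3720 to 7960 CPM with LL37 and RAPA. The LL37 libraries were not alike: on the first principal component, which held 68.3% of the variance, replicates 1 and 2 scored 133 and 129 and replicate 3 scored 64.4. In whole tissue, more cells of a type and more RNA per cell cannot be told apart.

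In LL37 skin some of the complement genes rose and others fell. The receptors C3ar1 and C5ar1 rose 5.16-fold and 5.98-fold over control, and the 3 C1q chains rose 1.78-fold to 1.96-fold. C4b fell to 0.283 of control, C2 to 0.423 and C3 to 0.426, while Cfb, with the fewest counts of the 9, did not pass the test. With rapamycin added to LL37, C1q and C4b were near the levels of control skin without rapamycin, and C3ar1 lay in between. C5ar1, C2 and C3 differed from the LL37 group by less than the test could resolve. In vehicle skin, C1q and C3ar1 also had lower estimates with rapamycin, and none of them passed the test.

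These statements rest on a fit of all 12 libraries with the quasi-likelihood test of edgeR. A gene passed the test at a Benjamini-Hochberg adjusted p under 0.05 over all tested genes, and was called where the absolute log2 fold change was also above 1. Of the 9 genes, 5 were called in LL37 vs control, 2 higher and 3 lower, where 19.5% of all tested genes were called, 8.73% as higher and 10.8% as lower. At the adjusted p alone 8 of 9 passed, against 42.6% of all tested genes. The LL37 and control libraries did not overlap for the same number, 8 of 9, and that was so for 49.7% of all tested genes.

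**Figure D1:**
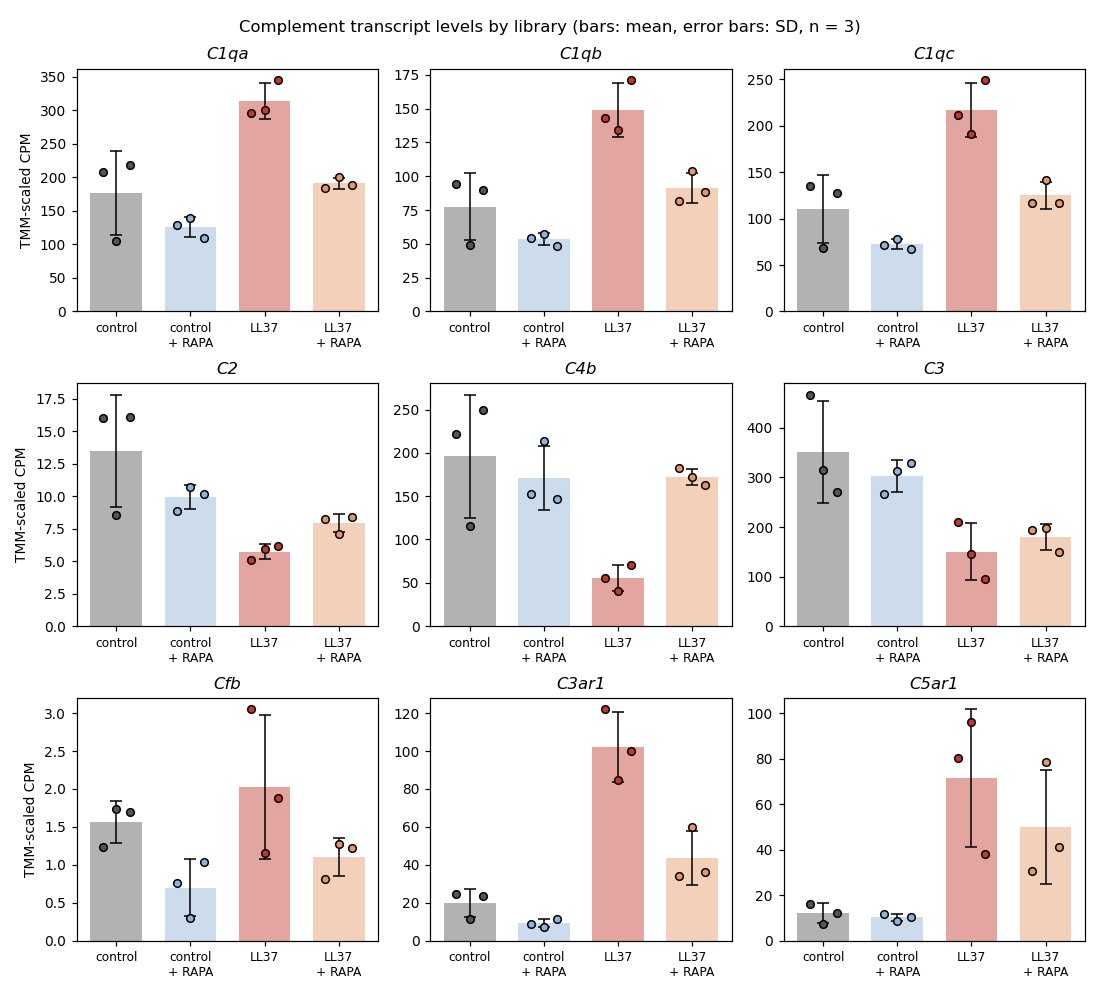
Level of each complement gene in the 12 libraries, as CPM scaled by TMM on a linear axis starting at 0, with 1 panel per gene. Points are libraries, bars are means and error bars are SDs of 3 libraries per group: C3ar1 in LL37 skin lies at 84.9 to 122 CPM, above every other group, and C4b at 40.9 to 70.2 CPM, below every other group.

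C1qa was the most abundant of the 9 transcripts per length in every group. In control skin C1qa averaged 170 CPM per kilobase of exon, followed by C1qb at 71.2, C3 at 68.3, C1qc at 57.2 and C4b at 34.4, and neighbours in this order from C1qb to C4b overlapped between libraries. C5ar1 (4.65), C3ar1 (4.61) and C2 (3.50) formed a lower group that overlapped too, and Cfb was last at 0.551 CPM per kilobase. In LL37 skin the order became C1qa (302), C1qb (137), C1qc (112), C3 (29.1), C5ar1 (27.9), C3ar1 (23.8), C4b (9.74), C2 (1.48) and Cfb (0.719 CPM per kilobase). There the ranges of C1qb and C1qc, of C3 and C5ar1, and of C5ar1 and C3ar1 overlapped. C4b, which was above both receptors in control skin, was below both in LL37 skin. In LL37 + RAPA skin C4b, at 30.3 CPM per kilobase, overlapped C3 at 35.0, as it did in no other group. The per-length levels of C2 and Cfb are uncertain, because 42.8% and 79.5% of their exonic length lie within the readthrough gene Gm20547 on the same strand, to which no read was assigned in any library.

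The genes of C1q lie side by side on the minus strand of chromosome 4 in the mouse genome build GRCm38, at chr4:136880129-136886187 (C1qb), chr4:136889804-136893065 (C1qc) and chr4:136895917-136898803 (C1qa). Their products assemble into the C1q molecule, which holds all 3 chains in equal number. C1qb measured 94.2, 48.9 and 89.5 CPM in control skin, 143, 134 and 171 CPM in LL37 skin, 54.5, 57.4 and 48.7 CPM in control + RAPA skin and 81.4, 104 and 88.6 CPM in LL37 + RAPA skin. Every LL37 library was above every library of the other groups, and every control + RAPA library was below every LL37 + RAPA library. The log2 fold change of C1qb in LL37 vs control was 0.95 ± 0.21 (SE, edgeR adjusted p = 0.0035).

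C1qa and C1qc showed the same pattern. C1qa was 177 ± 62.5 CPM (SD, n = 3) in control and 314 ± 27.2 CPM in LL37 skin, which is a log2 fold change of 0.83 ± 0.22 (edgeR adjusted p = 0.00941). C1qc was 110 ± 36.6 CPM and 217 ± 29.3 CPM, a log2 fold change of 0.97 ± 0.21 (edgeR adjusted p = 0.00333). All 3 chains were thus under the fold limit although their libraries did not overlap. With library size alone as the scale, C1qb and C1qc pass that limit at 1.03 and 1.06. Control replicate 2 was the lowest control library for all 3 chains, and for 7 of the 9 genes.

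The chains kept nearly fixed proportions while their sum moved. Per kilobase, C1qa made up 53.3% to 58.9% of the C1q transcripts in the 12 libraries, C1qb 23.0% to 26.3% and C1qc 17.6% to 20.8%. Likeness of pattern was measured as the root mean square difference between centred log2 CPM over the 12 libraries, which was 0.0504 for C1qb and C1qc and 0.0985 for C1qa and C1qb. For comparison it was 0.429 for C2 and C3, 0.552 for C3ar1 and C5ar1, and 1.96 for C4b and C3ar1, the least alike of the 9. Among all tested genes outside the list, Grn (0.138), which encodes the lysosomal protein progranulin, and Unc93b1 (0.190), a chaperone of endosomal Toll-like receptors, were the most like C1qb.

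Since the chains moved together, the sequence next to their start sites is shown for the 2 of them that the RefSeq table for GRCm38.p6 holds. The stretches lie upstream of the start in both RefSeq and the gene annotation, are read 5′ to 3′ on the minus strand and cover chr4:136886201-136886450 (C1qb, 250 bases) and chr4:136893066-136893164 (C1qc, 99 bases). Capitals mark a match to the core motif of PU.1, a transcription factor of myeloid cells, which was searched as GAGGAA on both strands.
C1qb: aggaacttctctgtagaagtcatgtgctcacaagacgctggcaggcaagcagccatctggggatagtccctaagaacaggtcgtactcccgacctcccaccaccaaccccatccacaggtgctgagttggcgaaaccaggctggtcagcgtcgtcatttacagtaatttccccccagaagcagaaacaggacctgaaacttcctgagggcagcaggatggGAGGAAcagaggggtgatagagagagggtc
C1qc: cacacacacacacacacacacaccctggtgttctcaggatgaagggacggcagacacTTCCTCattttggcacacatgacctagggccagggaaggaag
The match in C1qb is at bases -30 to -25 from the RefSeq start, and the match in C1qc, on the opposite strand, at -193 to -188. These 6 letters are common: 28.3% of 32851 RefSeq windows, from 250 bases before to 50 bases after a start, hold them. The windows of C3, C3ar1 and C5ar1 do not. A match is a string of letters and was not measured as a binding site.

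Macrophage markers were higher in LL37 skin too. Of 12 such markers 7 were called higher and none lower in LL37 vs control, with a median log2 fold change of 1.39 beside 0.83 for the 9 complement genes and 0 for all tested genes. Their summed level was 384 to 647 CPM in control, 454 to 477 CPM in control + RAPA, 1170 to 2030 CPM in LL37 and 798 to 1350 CPM in LL37 + RAPA skin. An abundant marker among them was Mrc1, the mannose receptor, at 65.6 ± 28.4 CPM (SD, n = 3) in control and 242 ± 51.9 CPM in LL37 skin. All 12 were detected. The part of this shift in the levels of C1q was not tested.

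The ratio of C1q to this marker sum varied within the LL37 group. The summed CPM of the 3 chains divided by the marker sum was 0.675, 0.578 and 0.735 in the control libraries and 0.562, 0.606 and 0.473 in control + RAPA. In LL37 skin the ratio was 0.320, 0.353 and 0.655, and in LL37 + RAPA skin 0.479, 0.331 and 0.488. LL37 replicate 3, the library that stood apart, had the highest C1q sum of all, 765 CPM, at the lowest marker sum of its group, and its ratio lay within the control range. The other 2 LL37 libraries were below every library without LL37. They also held most Cd14, a co-receptor for lipopolysaccharide, at 539 and 496 CPM beside 53.6 CPM in replicate 3 and 11.4 to 29.6 CPM without LL37. With Cd14 left out of the sum, a choice made after seeing the data, the LL37 ratios were 0.436, 0.491 and 0.685, and the lowest ratio without LL37 was 0.496. The markers did not all rise: Mertk and Lyve1 had log2 fold changes of -0.12 ± 0.23 and -0.21 ± 0.33 (SE) in LL37 vs control and did not pass.

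**Figure D2:**
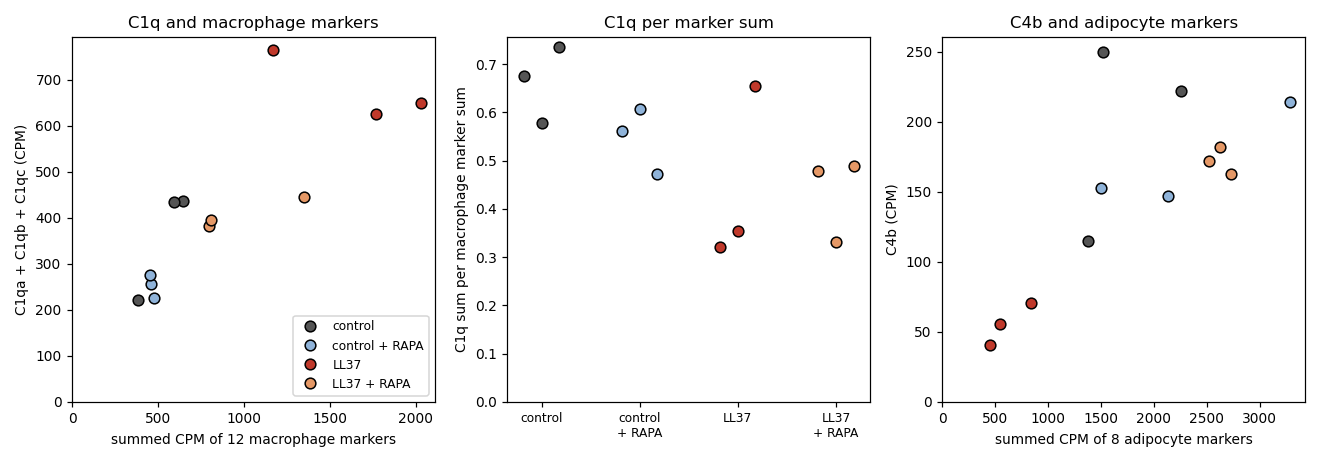
Left, summed CPM of C1qa, C1qb and C1qc against the summed CPM of 12 macrophage markers; middle, the ratio of those sums by group; right, C4b in CPM against the summed CPM of 8 adipocyte markers, with 1 point per library and linear axes starting at 0. LL37 replicates 1 and 2 lie at ratios of 0.320 and 0.353 and LL37 replicate 3 at 0.655, and the LL37 libraries are the lowest for C4b and for the adipocyte sum.

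C4b, which encodes the component cleaved by C1s after C1q has bound, had the largest fall of the 9 genes. It lies at chr17:34728380-34743882 on the minus strand, in the class III region of the major histocompatibility complex together with C2 (chr17:34862604-34898265) and Cfb (chr17:34856374-34862518). C4b measured 222, 115 and 250 CPM in control skin, 153, 214 and 147 CPM in control + RAPA, 55.2, 40.9 and 70.2 CPM in LL37, and 182, 172 and 163 CPM in LL37 + RAPA. The LL37 libraries were below all 9 others, and the other 3 groups overlapped. The log2 fold change was -1.82 ± 0.27 (SE) against control and -1.63 ± 0.27 against LL37 + RAPA (edgeR adjusted p = 0.000354 and 0.00283). Of the 100-base windows of its longest transcript, 16.5% also occur in the paralog C4a. C4a itself was low, 4.34 ± 0.404 CPM (SD, n = 3) in control and 3.54 ± 0.654 CPM in LL37 skin, with an edgeR adjusted p of 0.264.

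C4b was also the only one of the 9 whose response to rapamycin passed a test of the difference between LL37 and vehicle skin. Rapamycin changed C4b by 1.83 ± 0.38 (log2, SE) more in LL37 skin than in control skin, with an edgeR adjusted p of 0.0317, where 2.38% of all tested genes were called, 1.73% as higher and 0.650% as lower, and 3.28% passed at any fold. This call is near its limit. The estimate was 1.80 with an adjusted p of 0.0582 when replicate numbers entered the fit as a block, and leaving out any of 10 of the 12 libraries took the adjusted p to between 0.0514 and 0.0859, with estimates of 1.64 to 2.03. It was kept without control replicate 2 and without LL37 replicate 3. C2 came next at 0.92 ± 0.31 and did not pass (edgeR adjusted p = 0.115). The same difference was -0.23 for C1qa, -0.18 for C1qb, -0.19 for C1qc and -0.12 for C3ar1, and none passed.

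Adipocyte markers were likewise lowest in LL37 skin. All 8 were detected, and their summed level was 1380 to 2260 CPM in control, 1500 to 3290 CPM in control + RAPA, 453 to 835 CPM in LL37 and 2520 to 2730 CPM in LL37 + RAPA skin. In LL37 vs control 7 of 8 were called lower, with a median log2 fold change of -1.40, and in LL37 vs LL37 + RAPA all 8 were, with a median of -1.88. Fabp4, a fatty acid carrier of fat cells, was the most abundant, with a mean of 703 CPM in control and 284 CPM in LL37 skin. The 2 tested genes most like C4b over the 12 libraries were Cyp2f2 (root mean square difference 0.242), a cytochrome P450, and Gpd1 (0.256), glycerol-3-phosphate dehydrogenase. Whether the fall of C4b is part of the lower adipocyte signal was not tested.

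C2, which supplies the protease of the classical pathway's C3 convertase, fell in the same comparison. It measured 16.0, 8.56 and 16.1 CPM in control, 8.89, 10.7 and 10.2 CPM in control + RAPA, 5.06, 5.94 and 6.17 CPM in LL37 and 8.26, 7.12 and 8.43 CPM in LL37 + RAPA skin. The LL37 libraries were the lowest throughout, and control replicate 2 lay far below the other controls. The log2 fold change in LL37 vs control was -1.24 ± 0.22 (SE, edgeR adjusted p = 0.00102). Against LL37 + RAPA it was -0.47 ± 0.22 and did not pass (edgeR adjusted p = 0.143), although the libraries did not overlap. The genes most like C2 were Sirt3 (0.192), a mitochondrial deacetylase, and Cpq (0.194), a carboxypeptidase.

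C3, the component on which all pathways converge, was the most abundant member by CPM in control skin. It lies at chr17:57203970-57228136 on the minus strand. The libraries read 467, 315 and 271 CPM in control, 267, 314 and 329 CPM in control + RAPA, 210, 145 and 94.3 CPM in LL37 and 193, 198 and 149 CPM in LL37 + RAPA skin. Both groups with LL37 were below both groups without it, and they overlapped each other. The log2 fold change was -1.23 ± 0.27 (SE) in LL37 vs control (edgeR adjusted p = 0.00338) and -0.96 ± 0.27 in LL37 + RAPA vs control (0.0328). LL37 and LL37 + RAPA skin differed by -0.27 ± 0.26 and did not pass (edgeR adjusted p = 0.491). Without control replicate 1 or without LL37 replicate 3 the log2 fold change against control was -0.97 and -0.96, which is under the fold limit. The genes most like C3 were 5830454E08Rik (0.184) and Hpn (0.230), the serine protease hepsin.

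The bases upstream of C3 are shown because C3 went the other way from C1q, and its start is the same in both annotations. The stretch is chr17:57228137-57228386 in GRCm38.p6 from RefSeq, 5′ to 3′ on the minus strand, with capitals at a match to the C/EBP motif TTGCNNAA.
C3: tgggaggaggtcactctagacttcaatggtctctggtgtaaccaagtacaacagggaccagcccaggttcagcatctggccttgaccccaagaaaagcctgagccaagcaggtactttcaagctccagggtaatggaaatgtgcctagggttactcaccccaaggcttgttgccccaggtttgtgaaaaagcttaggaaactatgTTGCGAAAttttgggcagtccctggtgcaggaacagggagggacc
The match lies at bases -45 to -38 from the start. Of all RefSeq windows 10.8% hold such a match on either strand, and the windows of C1qb, C1qc, C3ar1 and C5ar1 hold none. The windows were also searched on both strands for TTCNNNGAA (the STAT element GAS, in 8.30% of windows), GAAANNGAA (9 letters of the interferon element ISRE, 8.56%) and GGANTTTCC (9 letters of an NF-kB site, 1.25%). Of the 5 members with a window, C5ar1 alone held one of these, an ISRE match on the opposite strand at -66 to -58. No window held more than 1 match, so that none overlapped.

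Cfb, the protease of the alternative pathway, had 6 to 56 counts per library, close to the limit of what this depth resolves. Since 79.5% of its exonic length lies within Gm20547, some of its reads may have gone unassigned. How far this lowered its counts was not tested. It measured 1.24, 1.74 and 1.69 CPM in control, 0.759, 0.296 and 1.04 CPM in control + RAPA, 3.05, 1.16 and 1.88 CPM in LL37 and 0.807, 1.27 and 1.22 CPM in LL37 + RAPA skin. The LL37 libraries enclosed the control ones. Its log2 fold change in LL37 skin was 0.39 ± 0.41 (SE) against control and 0.89 ± 0.42 against LL37 + RAPA, and neither passed (edgeR adjusted p = 0.482 and 0.145). The first of these was -0.02 without LL37 replicate 1, the library with the highest level. The most similar genes were the gene models Gm44075 (0.326) and Gm20427 (0.356).

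C3ar1, the receptor for C3a, was higher in every LL37 library than in any other. C3ar1 lies at chr6:122847138-122856161 and C5ar1 at chr7:16246743-16259540, both on the minus strand. C3ar1 measured 24.5, 11.2 and 23.8 CPM in control, 9.05, 7.06 and 11.4 CPM in control + RAPA, 122, 84.9 and 100 CPM in LL37 and 34.3, 60.0 and 36.3 CPM in LL37 + RAPA skin. The LL37 libraries were above all others, and the LL37 + RAPA libraries were between them and the controls without overlap on either side. The log2 fold change was 2.37 ± 0.31 (SE) in LL37 vs control and 1.14 ± 0.30 in LL37 + RAPA vs control (edgeR adjusted p = 0.000146 and 0.0275). In LL37 vs LL37 + RAPA it was 1.23 ± 0.30 (edgeR adjusted p = 0.0133).

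Of these calls for C3ar1, both that involve LL37 + RAPA skin depend on individual libraries. LL37 vs LL37 + RAPA lost its call without LL37 replicate 1 (edgeR adjusted p = 0.0547), without LL37 + RAPA replicate 1 (0.0611) or without LL37 + RAPA replicate 3 (0.0551), with estimates of 1.09, 1.08 and 1.12. LL37 + RAPA vs control lost it without control replicate 2, control replicate 3 or LL37 + RAPA replicate 2, at 0.84, 1.28 and 0.83. The 2 genes most like C3ar1 were Fcer1g (0.258), the signalling chain of Fc receptors, and the gene model Gm21188 (0.322). Its upstream stretch is printed as the contrast to the C1q genes and C3: it is chr6:122856162-122856407 in GRCm38.p6, from RefSeq on the minus strand, and has no capitals because none of the 5 motifs occurs in the window.
C3ar1: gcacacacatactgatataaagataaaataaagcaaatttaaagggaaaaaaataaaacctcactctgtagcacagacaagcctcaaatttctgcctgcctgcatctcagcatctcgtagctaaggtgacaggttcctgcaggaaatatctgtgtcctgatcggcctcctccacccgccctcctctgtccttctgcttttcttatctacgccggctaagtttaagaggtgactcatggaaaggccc

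C5ar1, the receptor for C5a on neutrophils and macrophages, rose as far but varied more. It measured 16.2, 7.43 and 12.2 CPM in control, 11.6, 8.79 and 10.6 CPM in control + RAPA, 80.5, 96.4 and 38.0 CPM in LL37 and 30.8, 78.5 and 41.1 CPM in LL37 + RAPA skin. All 6 libraries with LL37 were above all 6 without it, and the groups with and without rapamycin overlapped among them. The log2 fold change was 2.58 ± 0.42 (SE) in LL37 vs control, 2.07 ± 0.41 in LL37 + RAPA vs control and 2.28 ± 0.42 in LL37 + RAPA vs control + RAPA (edgeR adjusted p = 0.000563, 0.00582 and 0.00281). In LL37 vs LL37 + RAPA it was 0.51 ± 0.39 and did not pass (edgeR adjusted p = 0.358). C3ar1 passed in this comparison and C5ar1 did not, and the difference between the 2 receptors was not tested.

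Clec7a (0.274), the beta-glucan receptor dectin-1, was among the genes most like C5ar1. Neutrophil markers were higher in the same libraries, and all 7 that could be tested were called higher in LL37 vs control. Their summed level, Ly6g included, was 9.84 to 73.6 CPM in control, 16.1 to 34.8 CPM in control + RAPA, 255 to 2520 CPM in LL37 and 84.9 to 362 CPM in LL37 + RAPA skin. Ly6g, which defines mouse neutrophils, reached at most 25 counts in a library and was not tested. S100a9, a calcium-binding protein of granulocytes and inflamed keratinocytes, was the most abundant at 653 ± 514 CPM (SD, n = 3) in LL37 skin. The library with the lowest C5ar1 in the LL37 group, replicate 3, also had the lowest neutrophil sum, and the lowest macrophage marker sum. In LL37 + RAPA skin replicate 1 was lowest for C5ar1 and for the neutrophil sum. Replicate 2 there had more C5ar1 than replicate 3 (78.5 and 41.1 CPM) at a lower neutrophil sum (344 and 362 CPM). The macrophage marker sum was highest in that replicate 2, at 1350 CPM beside 798 CPM in replicate 1 and 806 CPM in replicate 3. The part of neutrophils or macrophages in the level of C5ar1 was not tested.

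**Figure D3:**
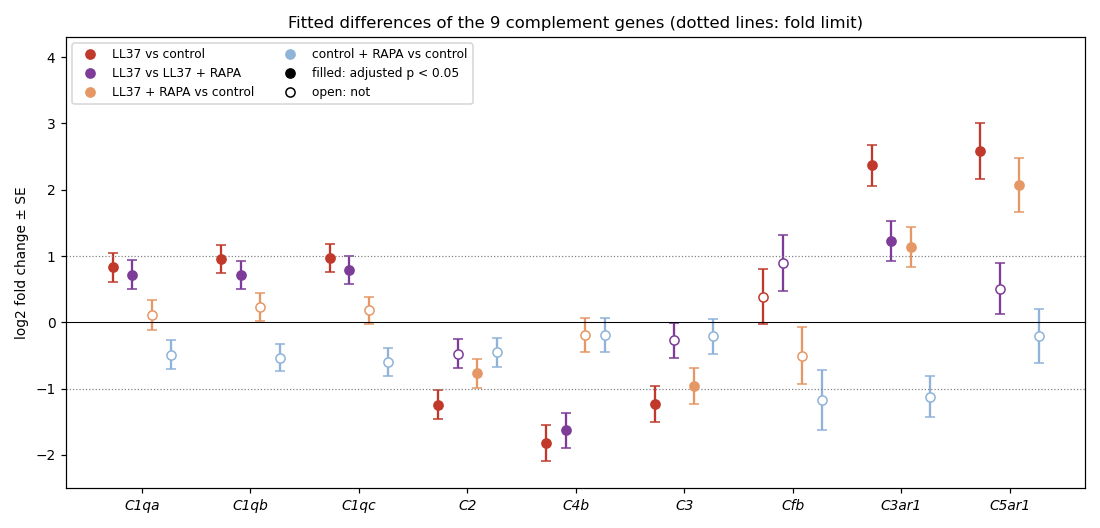
Log2 fold change with SE bars for the 9 genes, in red for LL37 vs control, purple for LL37 vs LL37 + RAPA, orange for LL37 + RAPA vs control and blue for control + RAPA vs control, from the fit of 12 libraries. Filled points have an adjusted p under 0.05 and dotted lines mark the fold limit: C3ar1 (2.37) and C5ar1 (2.58) are highest and C4b (-1.82) lowest in LL37 vs control, and no point of control + RAPA vs control is filled.

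Against LL37 + RAPA, the LL37 group was higher in the C1q chains and C3ar1 and lower in C4b. Of the 9 genes 2 were called, C3ar1 as higher and C4b as lower, where 10.1% of all tested genes were called, 4.33% as higher and 5.80% as lower. The C1q chains passed the adjusted p without the fold limit, which made 5 of 9 against 24.2% of all tested genes. Libraries did not overlap for 6 of 9 genes and for 38.3% of all tested genes. C1qa was 191 ± 8.51 CPM (SD, n = 3) in LL37 + RAPA skin, C1qb 91.2 ± 11.3 CPM and C1qc 125 ± 14.4 CPM. The log2 fold changes of LL37 over LL37 + RAPA were 0.72 ± 0.22, 0.71 ± 0.21 and 0.79 ± 0.21 (SE, edgeR adjusted p = 0.0331, 0.0286 and 0.0204). These p-values reach 0.103, 0.106 and 0.0765 when a library is left out, and that of C1qa is 0.0529 with the replicate block.

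Measured against the control group, which had no rapamycin, LL37 + RAPA skin had higher receptors and lower C2 and C3. The receptors were called, 2 of 9 genes, both as higher, where 6.49% of all tested genes were called, 2.15% as higher and 4.35% as lower. C2 and C3 passed the adjusted p as lower, so that 4 of 9 passed, against 14.0% of all tested genes, and the libraries did not overlap for these 4, against 36.4% of all tested genes. C2 stood at -0.77 ± 0.22 (log2, SE, edgeR adjusted p = 0.0352). Across the alternative edgeR and DESeq2 fits, the adjusted p of C2 and C3 in this comparison reached 0.136 and 0.124. The C1q chains differed from control by 0.11 to 0.23 and C4b by -0.19 on the log2 scale, all with edgeR adjusted p above 0.5. The LL37 and LL37 + RAPA groups share the control libraries in these comparisons, so their fold changes against control are not independent.

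With rapamycin on both sides the peptide's effect on the receptors was again called. In LL37 + RAPA vs control + RAPA 2 of 9 genes were called, C3ar1 at 2.25 ± 0.32 (log2, SE, edgeR adjusted p = 0.000627) and C5ar1 as given above, both as higher, where 8.39% of all tested genes were called, 4.07% as higher and 4.32% as lower. At the adjusted p alone 4 of 9 passed, against 18.6% of all tested genes, and libraries did not overlap for 7 of 9, against 41.3%. C1qb at 0.77 ± 0.21 and C1qc at 0.79 ± 0.21 passed the adjusted p (edgeR, 0.0237 and 0.0231), and C1qa at 0.60 ± 0.22 did not (0.0780). Neither C2 at -0.32 ± 0.22 nor C3 at -0.75 ± 0.27 passed here (edgeR adjusted p = 0.351 and 0.072). C4b was 171 ± 36.8 CPM (SD, n = 3) in control + RAPA and 172 ± 9.16 CPM in LL37 + RAPA skin, a log2 fold change of 0.01 ± 0.26.

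In vehicle-injected skin, rapamycin moved none of the 9 genes past the test. edgeR called 0 of 9 and 0% of all tested genes. DESeq2 also called 0 of 9, and 53 of the 17993 tested genes. All 9 estimates were negative, from -1.17 ± 0.45 (SE) for Cfb and -1.12 ± 0.31 for C3ar1 to -0.19 ± 0.26 for C4b, and 5 genes had an unadjusted p under 0.05, as did 8.65% of all tested genes. The C1q chains were at -0.49, -0.53 and -0.60. The libraries of the 2 groups overlapped for 8 of the 9 genes, with Cfb as the exception, and were apart for 15.7% of all tested genes. Control replicate 2 lay inside or close to the range of the control + RAPA libraries for C1q, C2 and C3ar1.

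Other complement genes were read from a list of 45, of which 32 passed the filter. In LL37 vs control 13 were called, 6 higher and 7 lower, and 19 passed the adjusted p alone, against the 19.5% and 42.6% of all tested genes given above. The median log2 fold change was -0.61 on the list and 0 over all tested genes, and 24 of the 32 values were negative. The 13 genes that did not pass the filter include Hc, which encodes C5, the source of the ligand of C5ar1, at 0.0688 ± 0.0782 CPM (SD, n = 3) in control and 0.775 ± 0.730 CPM in LL37 skin. Mbl1 and Mbl2, the mannose-binding lectins of plasma, had no count in any library.

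Among the receptors of the list, 4 of 6 tested genes were called higher in LL37 vs control and 1 lower. Of all tested genes 8.73% were called higher and 10.8% lower. C5ar2, the second C5a receptor, had 2 to 3 counts in each control library and 18 to 50 in LL37 skin, at least 12.7-fold higher when control is set at the floor of 3 counts per library. Itgam and Itgb2, the chains of complement receptor 3, rose by 2.28 ± 0.34 and 1.36 ± 0.43 (log2, SE, edgeR adjusted p = 0.000330 and 0.0238), and Cd93, a surface glycoprotein of endothelial and myeloid cells, by 1.16 ± 0.27 (0.00539). Cd93 was named after its value was seen. Itgam shares 68.7% of its exonic length with the gene model Gm49368, which had at most 6 counts. Vsig4, the C3b receptor of resident macrophages, fell from 1.19 ± 0.121 to 0.264 ± 0.0731 CPM (log2 fold change -2.13 ± 0.42, edgeR adjusted p = 0.00177). Vsig4 had 20 to 25 counts in the control libraries and 3 to 6 in the LL37 libraries, which is near the floor. None of the 6 passed in LL37 vs LL37 + RAPA, where Itgam, Itgb2 and Cd93 differed by 0.06, 0.01 and 0.00.

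Several components and regulators fell in LL37 skin. Of 9 tested genes of the classical and lectin pathways, all with negative values, 4 passed the adjusted p as lower. Of 11 tested regulators 5 passed as lower and 1 as higher. Among all 17993 tested genes 42.6% passed, 3891 genes as lower and 3777 as higher. The largest fall was that of Fcna (ficolin A), a lectin that can start the lectin pathway. Fcna fell from 23.3 ± 4.36 to 2.87 ± 1.76 CPM (SD, n = 3) at a log2 fold change of -3.00 ± 0.51 (edgeR adjusted p = 0.000755). Of the terminal components only C6 was called, at -2.71 ± 0.62 (edgeR adjusted p = 0.00441). C6 had 34 to 86 counts in the control libraries and 3 to 19 in the LL37 libraries. The regulators that fell include Cd55, which dissociates C3 convertases on cell surfaces, at -1.36 ± 0.19, and Vtn (vitronectin), a fluid-phase inhibitor of the terminal complex, at -1.94 ± 0.44 (edgeR adjusted p = 0.000211 and 0.00429). Serping1, the C1 inhibitor, named here after its value was seen, was at -0.98 ± 0.14 (edgeR adjusted p = 0.000246), just under the fold limit.

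The alternative pathway was divided. Cfd, which encodes factor D or adipsin, the adipocyte protease that cleaves factor B, fell from 400 ± 178 to 117 ± 73.2 CPM (SD, n = 3), and Cfp, properdin, which leukocytes make, rose from 70.1 ± 18.5 to 146 ± 35.4 CPM. Their log2 fold changes were -1.77 ± 0.50 and 1.06 ± 0.23 (SE, edgeR adjusted p = 0.0138 and 0.00323). Cfp was named after its value was seen. The adipocyte sums given with C4b were lowest in the same LL37 libraries, and their part in the level of Cfd was not tested.

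In LL37 vs LL37 + RAPA 5 of the 32 were called, 1 higher and 4 lower, and 10 passed the adjusted p, against 10.1% and 24.2% of all tested genes. The gene called higher was Cpn1, the catalytic chain of carboxypeptidase N, which inactivates C3a and C5a. It had 33 to 60 counts in the LL37 libraries and at most 9 elsewhere, and 2.65 ± 1.06 CPM (SD, n = 3) in LL37 beside 0.173 ± 0.109 CPM in LL37 + RAPA skin. Its log2 fold change was 3.86 ± 0.71 (SE, edgeR adjusted p = 0.00417), and 3.73 ± 0.72 against control (0.00160). Vtn (-2.02 ± 0.44) and Cfd (-1.76 ± 0.50) were called lower, with edgeR adjusted p of 0.00825 and 0.0258, as were Susd4 and Cd59b, named after their values were seen, at -1.14 and -1.06. The count of 5 was 2 without LL37 replicate 1, LL37 + RAPA replicate 1 or LL37 + RAPA replicate 2, 3 without LL37 replicate 2 and 9 without LL37 replicate 3.

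**Figure D4:**
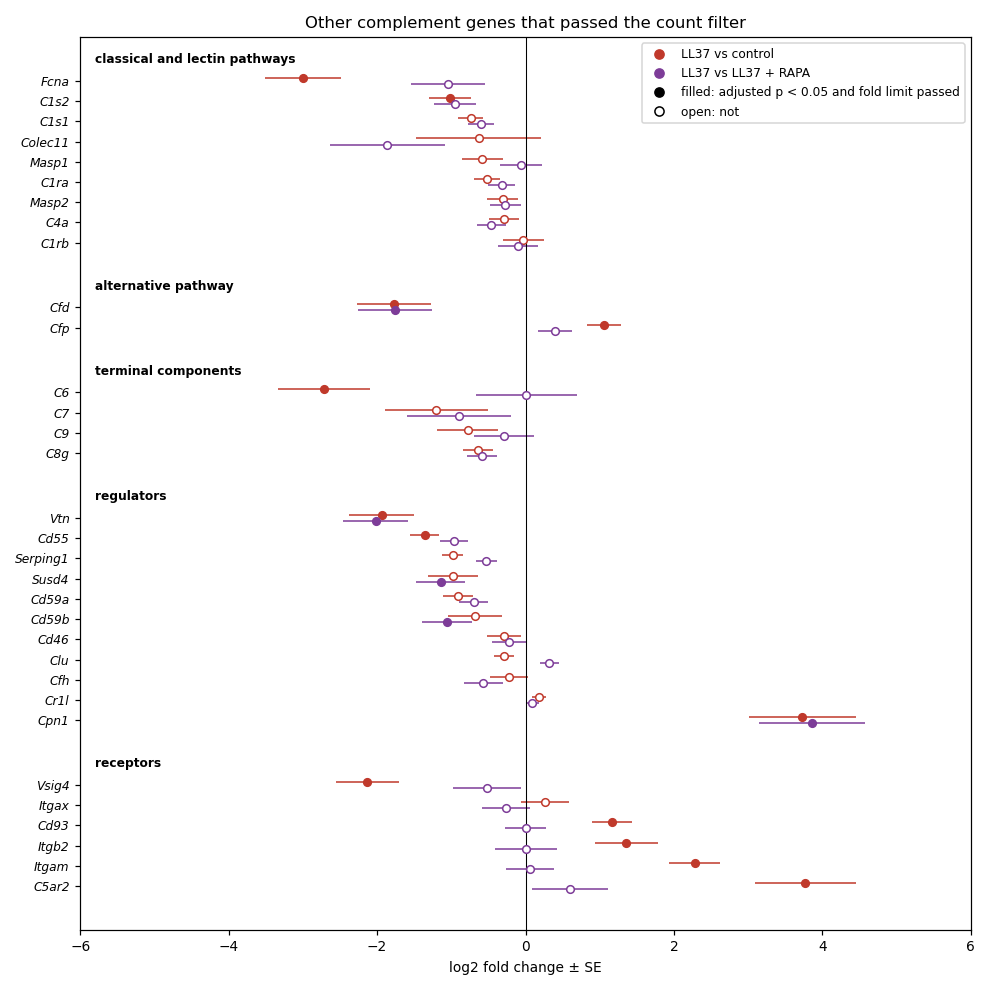
Log2 fold change with SE bars of the 32 other complement genes that passed the filter, grouped by role, with LL37 vs control in red and LL37 vs LL37 + RAPA in purple. Filled points passed the adjusted p and the fold limit: receptors lie mostly to the right in red and near 0 in purple, and Cpn1 is at 3.73 and 3.86.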

How the data were processed

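RNA of 12 skin samples, 3 in each of 4 groups, was sequenced with 100-base paired-end reads. The authors deposited read counts per gene for each library, unpooled and not normalized. The submitters' processing notes name HISAT2 2.0.5, StringTie 1.3.3b and featureCounts 1.5.0-p3 with mm10, whereas the study's methods name HTSeq as the counter. The strand setting is not given in the sources used here, so reads of overlapping and antisense genes cannot be told apart.

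Symbols, positions and exonic lengths came from the GENCODE annotation of GRCm38 (52403 of 52636 IDs had a symbol). Counts were fitted in R 4.3.3 with edgeR 4.0.16, using TMM scaling, the filterByExpr rule applied by group and the quasi-likelihood F-test over 12 libraries with a term per group. A call required a Benjamini-Hochberg adjusted p under 0.05 with a log2 fold change beyond 1 in either direction. CPM are scaled by TMM, and log2 CPM used a prior count of 2. The interaction is the effect of RAPA in LL37 skin minus that in control skin. The fit was tested on simulated data.

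The 9 genes and the gene lists were chosen with earlier results of these data known. Genes named were the 9, the first 10 of the other complement list by absolute log2 fold change among those called in LL37 skin against either control or LL37 + RAPA, the 2 genes of smallest root mean square difference to each of 7 members, and an abundant marker of each list described. Of the genes this rule gives, 2 are not reported here. Alternatives were other normalizations, DESeq2 1.42.0, other filters, no fold limit, only the compared groups, the replicate block and each library left out. Promoter windows came from RefSeq for 5 of 9 genes, and C1qa, C2, C4b and Cfb are not in that table. Protein sequences were not used here. Figures were drawn with matplotlib 3.10.9.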

Additional observations from a re-analysis of the deposited data

Results flagged for a closer look

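The response of C4b to rapamycin differed between LL37 skin and vehicle skin, by the interaction term of the fit. C4b was 55.5 ± 14.6 CPM (SD, n = 3) in LL37 and 172 ± 9.16 CPM in LL37 + RAPA skin, while control and control + RAPA skin held 196 ± 71.1 and 171 ± 36.8 CPM. The difference of the log2 effects was 1.83 ± 0.38 (SE, edgeR adjusted p = 0.0317). The call was lost with the replicate block (adjusted p = 0.0582) and without any of 10 of the 12 libraries (0.0514 to 0.0859). Of the 8 adipocyte markers, 6 had called interaction terms, all positive, where 2.38% of all tested genes were called, 1.73% as higher. Of 24 tested skeletal muscle markers 4 had called interaction terms, and all 24 estimates were positive. The part of adipocytes or muscle in the value for C4b was not tested.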

How the results depend on the processing

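With 3 libraries a group, effects near the fold limit moved across it. Of the values for individual genes, 789 kept direction and side of the limits, 22 passed newly, 19 no longer passed and 19 changed sign. Library size alone as the scale shifted the median of all genes by 0.13 (LL37 + RAPA vs control), 0.19 (LL37 + RAPA vs control + RAPA) and 0.10 (interaction). Without the fold limit 8 members were called in LL37 skin against control, 5 against LL37 + RAPA, and 4 each in LL37 + RAPA against control and against control + RAPA. Of the other complement genes, 8 were called in LL37 vs control with at least 10 counts in every library. In LL37 vs LL37 + RAPA their number was 10 without the fold limit, 3 without a filter, 1 with at least 10 counts in every library, 2 with only the compared groups and 2 to 9 with a library left out. Leaving out libraries gave 4 to 7 members in LL37 vs control, 1 to 2 against LL37 + RAPA, 1 to 3 in LL37 + RAPA vs control and 0 to 2 in the interaction.

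Replicate numbers did not appear to pair the samples. Deviations of same-numbered samples correlated at -0.188 to 0.263, over 0.1 in 4 of 18 pairs of samples. For differently numbered samples the range was -0.303 to 0.277, over 0.1 in 5 of 36 pairs. The replicate block gave 5 members in LL37 vs control and 2 against LL37 + RAPA, and took the interaction from 1 to 0. Under the block C4b in LL37 + RAPA vs control + RAPA was -0.01.

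Changes of sign were all of values that had not been called, and the cause was not tested. With a library left out, Cfb in LL37 vs control ranged from -0.02 to 0.69 (log2). In LL37 + RAPA vs control C1qa ranged from -0.17 to 0.28, C1qb from -0.02 to 0.40, C1qc from -0.08 to 0.35 and C4b from -0.47 to 0.02. C4b in LL37 + RAPA vs control + RAPA ranged from -0.07 to 0.20. In control + RAPA vs control C3 ranged from -0.39 to 0.04 and C5ar1 from -0.49 to 0.06. In the interaction the ranges were -0.38 to 0.07 for C1qa, -0.33 to 0.09 for C1qb, -0.34 to 0.09 for C1qc, -0.42 to 0.19 for C3ar1 and -0.09 to 0.70 for Cfb.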
